A study of Mus musculus with 15 samples.

Results

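Striatal projection neuron markers are 9 transcripts, chosen by gene symbol, among the 18931 genes measured in brain tissue of Kunming mice, an outbred stock. All 9 were found in the table and passed the filter on low counts. The libraries came from 5 groups of 3, namely vehicle, JA, UA and JU, all after occlusion of the middle cerebral artery (MCAO), and a sham operation. The study title names jasminoidin and ursodeoxycholic acid as the agents given in cerebral ischemia-reperfusion. What JA, UA and JU stand for is not written out in the labels, which also give no dose, time after occlusion, sex, age, brain region or hemisphere. Whether each library is a different mouse is not stated either, and the p-values therefore cover the spread between libraries alone, part of which may be technical.

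Projection neurons make up most of the neurons of the striatum, a deep forebrain nucleus that lies in the territory of the middle cerebral artery. They fall into a direct pathway class, which carries the D1 dopamine receptor and the substance P precursor, and an indirect pathway class, which carries the D2 dopamine receptor, an adenosine receptor and the enkephalin precursor. In both classes, dopamine and adenosine act through cyclic AMP, which is made by adenylyl cyclase and broken down by phosphodiesterases, and through DARPP-32, a regulator of protein phosphatase 1.

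Drd1 encodes the D1 receptor (Entrez 13488; chromosome 13, 54051183 to 54055705, GRCm38) and Tac1 the precursor of substance P (Entrez 21333; chromosome 6, 7554879 to 7565834). Drd2 encodes the D2 receptor (Entrez 13489; chromosome 9, 49340627 to 49408177), Adora2a the adenosine receptor of this class (Entrez 11540; chromosome 10, 75316877 to 75334784) and Penk proenkephalin (Entrez 18619; chromosome 4, 4133531 to 4138819). Shared by both classes are Ppp1r1b, which encodes DARPP-32 (Entrez 19049; chromosome 11, 98348404 to 98357796), and Adcy5, the main striatal adenylyl cyclase (Entrez 224129; chromosome 16, 35154877 to 35305738). The others are Pde10a, a phosphodiesterase (Entrez 23984; chromosome 17, 8525372 to 8986648), and Rgs9, which speeds the shut-off of G proteins after receptor signaling (Entrez 19739; chromosome 11, 109225355 to 109298129). The annotation (GENCODE M21) places 15.7% of the exon bases of Ppp1r1b and 14.3% of those of Penk under exons of a gene on the opposite strand. The strand setting of the counting is not given in the sources used here, so reads there could belong to either gene.

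Promoter windows, from 250 bases before to 50 after the annotated start, were found in RefSeq (GRCm38.p6) for 6 of the 9 genes, which together have 8 such windows. Ppp1r1b, Penk and Adora2a had no entry. The windows shown are those of both dopamine receptors, and of Tac1 and Adcy5, the members with the lowest and nearly the highest retained level in the library where the markers were lowest. Capitals mark GC boxes (GGGCGG or its complement CCGCCC) and, in Tac1, the core of the cyclic AMP response element (TGACG or its complement CGTCA). The windows lie at chr13:54055609-54055908 on the minus strand for Drd1 (the more upstream of its windows), chr9:49340153-49340452 on the plus strand for Drd2, chr6:7554811-7555110 on the plus strand for Tac1 and chr16:35154614-35154913 on the plus strand for Adcy5.
Drd1: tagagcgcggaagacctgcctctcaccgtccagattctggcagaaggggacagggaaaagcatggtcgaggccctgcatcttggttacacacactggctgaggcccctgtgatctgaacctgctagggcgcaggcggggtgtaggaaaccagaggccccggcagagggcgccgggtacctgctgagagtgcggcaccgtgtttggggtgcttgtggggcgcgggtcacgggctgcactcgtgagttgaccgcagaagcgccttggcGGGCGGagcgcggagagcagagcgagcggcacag
Drd2: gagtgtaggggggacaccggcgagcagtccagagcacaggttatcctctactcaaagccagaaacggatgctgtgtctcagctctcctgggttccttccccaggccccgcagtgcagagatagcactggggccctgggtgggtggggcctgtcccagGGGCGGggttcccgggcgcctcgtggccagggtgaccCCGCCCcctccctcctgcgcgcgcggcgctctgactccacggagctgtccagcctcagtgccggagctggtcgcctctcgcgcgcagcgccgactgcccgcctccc
Tac1: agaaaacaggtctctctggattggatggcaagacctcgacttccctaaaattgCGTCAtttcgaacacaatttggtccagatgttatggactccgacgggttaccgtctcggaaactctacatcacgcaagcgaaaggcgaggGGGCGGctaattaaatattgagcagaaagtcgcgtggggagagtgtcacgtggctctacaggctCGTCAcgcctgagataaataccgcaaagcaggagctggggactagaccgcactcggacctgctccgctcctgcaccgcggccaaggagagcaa
Adcy5: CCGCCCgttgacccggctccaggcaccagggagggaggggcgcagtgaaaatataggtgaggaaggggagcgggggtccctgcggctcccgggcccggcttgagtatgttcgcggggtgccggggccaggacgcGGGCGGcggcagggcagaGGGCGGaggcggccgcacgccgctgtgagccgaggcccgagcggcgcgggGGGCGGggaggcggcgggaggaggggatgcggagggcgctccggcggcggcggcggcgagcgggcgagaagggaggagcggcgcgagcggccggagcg

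A GC box was present in 8 of the 8 marker windows, and in 35.7% of all 32851 promoter windows. The core of the cyclic AMP response element was present only in the Tac1 window, which held 2, against 20.8% of all windows, and the full palindrome TGACGTCA was in 0 of the 8, against 1.79%. The core also lies within each full palindrome. The GC content ran from 54.0% in the Tac1 window to 79.0% in that of Adcy5, with a median of 52.7% over all windows. These matches describe the letters of the windows only.

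Total counts were 18346180 to 20447465 per library. The libraries of the occluded groups stood far apart from each other. JU replicate 1 stood beyond every vehicle library in reactive microglial genes, with a mean log2 level 5.46 above the sham mean against 3.29 to 4.62 in vehicle. JA replicate 1 stood at 3.13 in the same score, and the other JA libraries at 0.21 and 0.51.

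In sham brain, where levels can be compared between genes per length, the markers spanned more than a factor of 10. Ppp1r1b (213 ± 21.3 FPKM, SD, n = 3) and Penk (203 ± 8.76) were the highest, and their ranges overlapped. Adcy5 (47.7 ± 5.03) and Tac1 (45.4 ± 3.77) followed, overlapping each other and separate from the genes above and below. Adora2a stood at 24.4 ± 2.15 FPKM. The lowest were Drd2 at 15.4 ± 1.47, Drd1 at 15.2 ± 2.32, Pde10a at 14.2 ± 2.86 and Rgs9 at 11.8 ± 1.36 FPKM, and each overlapped its neighbour in that order. FPKM values are normalized for transcript length and depth by the authors. All other levels below are CPM, in which counts are divided by the library's TMM-scaled total, and serve to compare 1 gene between libraries. The lowest count of any marker in any library was 44.

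Vehicle was compared with sham to ask what occlusion did to these transcripts. All 9 markers had negative fold changes, with a median of -1.03 on the log2 scale against 0.0048 over all genes tested. 0 of the 9 passed an adjusted p of 0.05 in edgeR's quasi-likelihood test, while 5.02% of all genes did. 1 of 9 (Rgs9) had an unadjusted p under 0.05, against 29.3% of all genes, and in the other contrasts described below 0 of 9 did. The share of all genes with such a p was 18.8% for JA and 24.3% for UA against vehicle, 32.8% for JU against sham, and 20.3% for JU against JA and 27.3% for JU against UA. DESeq2 and voom called 0 of the 9 in every contrast. Over all genes, DESeq2 called 0.00661% to 19.7% by contrast and voom 0% to 4.34%. In vehicle against sham these shares were 16.6% and 4.34%. Vehicle replicates 2 and 3 were below all sham libraries for 9 of 9 markers, and vehicle replicate 1 for 4 of 9, so that the fold changes average unlike libraries. In bulk tissue, a smaller share of projection neurons in the sample and less marker RNA per neuron cannot be told apart. The brain region taken is not given, so the share of striatum may differ between libraries, which was not tested.

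The direct pathway transcripts were lower in vehicle without overlap, which was so for 24.7% of all genes. Drd1 stood at 44.6, 14.7 and 20.5 CPM in vehicle replicates 1 to 3, 23.7, 36.8 and 62.6 in JA, 43.8, 43.9 and 32.8 in UA, 6.02, 42.9 and 24.7 in JU, and 53.4, 64.1 and 47.7 in sham. Every vehicle library lay below every sham library, the first of them narrowly, and JU replicate 1 was the lowest of all 15. The log2 fold change of Drd1 in vehicle was -1.05 ± 0.57 (SE; edgeR adjusted p = 0.236). Tac1 stood at 32.9, 10.99 and 21.2 CPM in vehicle, 18.7, 34.9 and 58.2 in JA, 54.8, 43.4 and 37.4 in UA, 2.26, 49.8 and 18.98 in JU, and 55.2, 64.1 and 63.2 in sham. It was the only marker for which vehicle replicate 1 lay far under sham, at 54.1% of the sham mean. Its fold change of -1.49 ± 0.74 was the largest of the 9 (adjusted p = 0.196). When only the vehicle and sham libraries were fitted, Tac1 passed (adjusted p = 0.0234), and it also passed when JU replicate 1 was left out of the shared fit (adjusted p = 0.0360, log2 fold change -1.497). The share of all genes that passed was 25.5% in the first setting and 33.9% in the second, and the share that fell was 11.7% and 16.9%, against 1 of 9 markers in each.

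The indirect pathway transcripts overlapped between vehicle and sham, through vehicle replicate 1 alone. Drd2 stood at 50.5, 8.83 and 12.6 CPM in vehicle, 26.1, 36.3 and 46.7 in JA, 40.0, 37.4 and 37.2 in UA, 2.52, 42.1 and 21.8 in JU, and 44.5, 48.0 and 39.6 in sham. Vehicle replicate 1 was above all sham libraries and the other vehicle libraries were at 20.1% and 28.5% of the sham mean (log2 fold change -0.88 ± 0.74, adjusted p = 0.441). Adora2a stood within the sham range in vehicle replicate 1 and far under it in the others, with 73.4, 12.95 and 16.1 CPM in vehicle, 33.0, 54.3 and 69.4 in JA, 64.2, 55.0 and 52.7 in UA, 4.83, 67.8 and 28.3 in JU, and 69.8, 79.7 and 68.0 in sham (-1.09 ± 0.75, adjusted p = 0.344). Penk went furthest in this direction, with 474 CPM in vehicle replicate 1 and 75.3 and 95.2 in vehicle replicates 2 and 3. The first value was 145% of the sham mean and higher than in any other library. Penk in the other groups stood at 219, 245 and 363 CPM in JA, 332, 262 and 267 in UA, 49.0, 318 and 139 in JU, and 321, 341 and 315 in sham. Its fold change was the smallest of the 9, at -0.60 ± 0.67 (adjusted p = 0.561), and it was -1.94 without vehicle replicate 1.

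Of the signaling proteins shared by both classes, Rgs9 had the smallest p. It stood at 83.1, 34.1 and 34.7 CPM in vehicle, 51.2, 77.6 and 94.6 in JA, 88.5, 76.5 and 67.7 in UA, 28.4, 92.0 and 46.1 in JU, and 106, 114 and 90.2 in sham. All vehicle libraries were below all sham libraries (log2 fold change -1.03 ± 0.42, adjusted p = 0.133). Pde10a was likewise lower in every vehicle library, at 275, 73.1 and 108 CPM in vehicle, 139, 282 and 381 in JA, 267, 264 and 247 in UA, 42.0, 269 and 135 in JU, and 322, 410.4 and 278 in sham (-1.15 ± 0.60, adjusted p = 0.215). Its first vehicle library lay just under the lowest sham library. Ppp1r1b stood at 409, 141 and 178 CPM in vehicle, 256, 352 and 471 in JA, 440.1, 343 and 307 in UA, 80.3, 490.2 and 253 in JU, and 467, 492 and 404 in sham (-0.90 ± 0.53, adjusted p = 0.265). Adcy5 stood at 328, 143 and 179 CPM in vehicle, 214, 302 and 349 in JA, 303, 294 and 265 in UA, 94.7, 349 and 220.5 in JU, and 365, 371 and 305 in sham (-0.68 ± 0.39, adjusted p = 0.262). For these last genes vehicle replicate 1 lay within the sham range. Drd1, Tac1, Rgs9 and Pde10a, or 4 of the 9, thus had all vehicle libraries below all sham libraries, which was so for 24.7% of all genes. Leaving out vehicle replicate 1 moved the median fold change of the markers to -1.91, with 0 of 9 past the threshold, against 1.9% of all genes.

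**Figure D1:**
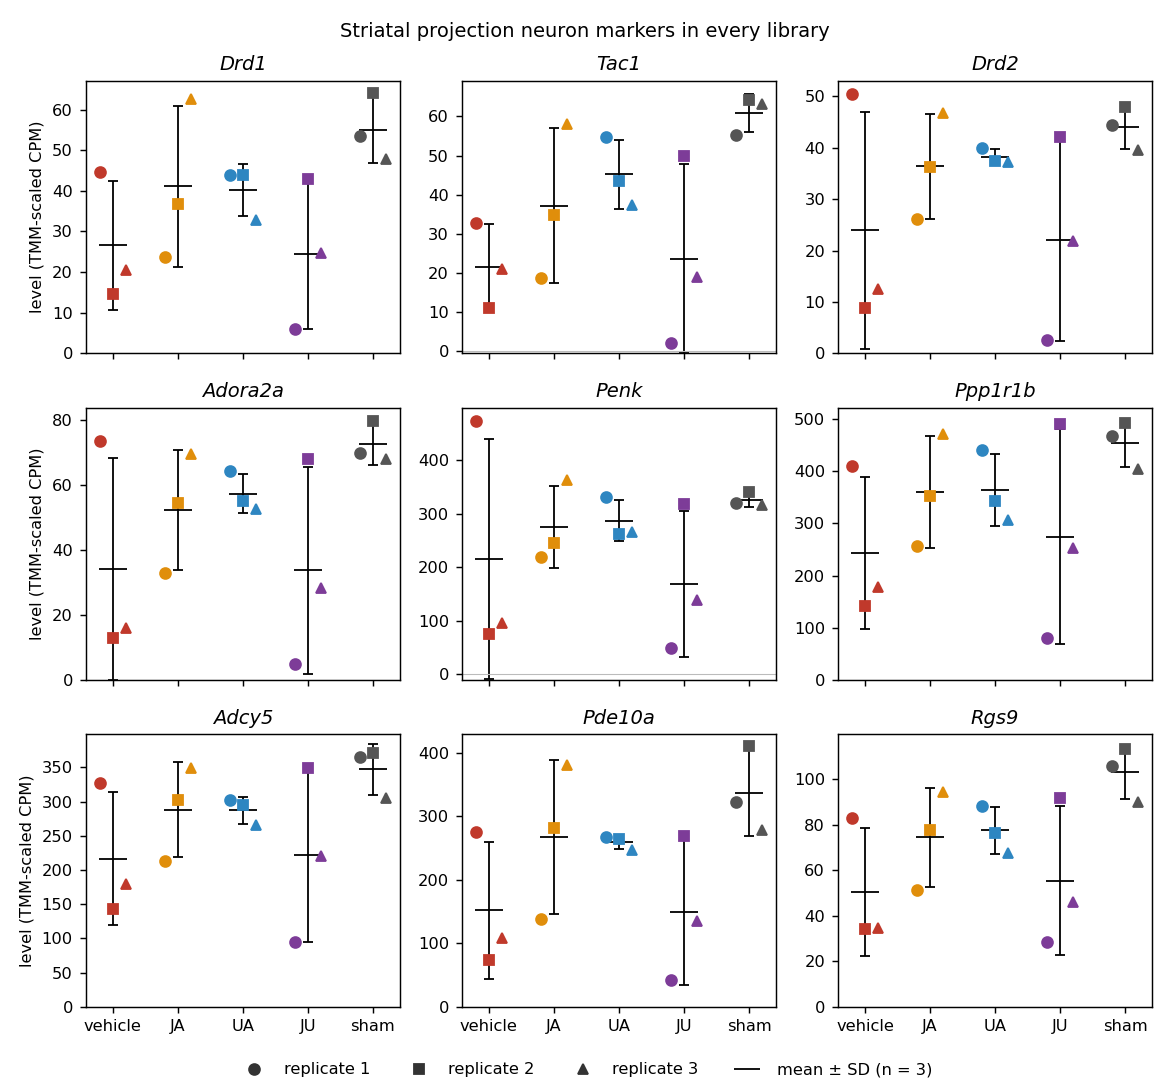
Level of each marker in every library, in TMM-scaled CPM on the vertical axis (direct pathway genes first, then indirect, then shared), with 1 point per library and bars for the mean ± SD (n = 3). Vehicle replicate 1 sits near or above sham for Drd2, Adora2a and Penk and under it for Tac1, and JU replicate 1 is the lowest library in all 9 panels.

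JU replicate 1 showed how far each marker could lie below sham. There Tac1 was 26.9-fold lower than the sham mean, Drd2 17.5-fold, Adora2a 14.99-fold and Drd1 9.15-fold. Pde10a was 8.03-fold lower, Penk 6.65-fold and Ppp1r1b 5.66-fold, while Adcy5 and Rgs9 were 3.66-fold and 3.64-fold lower. In the remaining libraries in which all 9 markers lay below all sham libraries, the gene with the highest retained share was Adcy5 in vehicle replicates 2 and 3 (41.3% and 51.6% of the sham mean) and in JU replicate 3 (63.6%). It was Penk in JA replicate 1 (67.2%), and Drd2 in UA replicates 2 and 3 (85.0% and 84.6%). The share of all genes below every sham library was 43.8% in JU replicate 1 and 27.2% to 41.2% in the other libraries of the occluded groups.

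The comparisons of JA, UA and JU with vehicle ask what each treatment changed after occlusion, and all 3 use the same vehicle libraries. With JA, 9 of 9 markers had positive fold changes, from 0.36 for Penk to 0.82 for Pde10a, with a median of 0.60. 0 of 9 passed (smallest edgeR adjusted p = 0.435), against 1.56% of all genes, and 0 of 9 had all JA libraries above all vehicle libraries, against 17.6% of all genes. The JA libraries were unlike each other. JA replicate 1 was below all sham libraries for 9 of 9 markers, JA replicate 2 for 8 of 9, all but Pde10a, and JA replicate 3 for 0 of 9. Without vehicle replicate 1 the median was 1.23, again with 0 of 9 past the threshold, and with 0% of all genes. Without vehicle replicate 2 it was 0.30, without vehicle replicate 3 it was 0.35, and without JA replicate 3 it was 0.33. It was 0.80 without JA replicate 1.

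UA gave the most even libraries of the occluded groups. The standard deviation of Drd2 was 4.01% of its mean in UA, against 96.2% in vehicle, and that of Pde10a was 4.24%, against 71.0%. All 9 markers had positive fold changes against vehicle, with a median of 0.62, and 0 of 9 passed, while 3.47% of all genes did. Tac1 had the largest, at 1.06 ± 0.73 (adjusted p = 0.363), and was the only marker with every UA library above every vehicle library, which held for 21.7% of all genes. Next came Pde10a at 0.77 ± 0.59 (adjusted p = 0.415) and Adora2a at 0.75 ± 0.75 (adjusted p = 0.535). Penk had 0.42 ± 0.67 and Adcy5 0.41 ± 0.39. Without vehicle replicate 1 the median was 1.499, and it was 0.31 without vehicle replicate 2 and 0.41 without vehicle replicate 3, with 0 of 9 past the threshold in each case. The share of all genes that passed was 0.241%, 0% and 1.43% in the same order.

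Against sham, UA libraries were lower for all 9 markers by a median of -0.34 on the log2 scale. 0 of 9 passed (edgeR adjusted p = 1.0 for each), as did 0% of all genes, and 0 of 9 had an unadjusted p under 0.05, against 1.28% of all genes. Yet for 6 of 9 markers (Drd1, Tac1, Adora2a, Rgs9, Pde10a and Adcy5) every UA library lay below every sham library, which was so for 6.04% of all genes. The markers varied together over libraries, so these 6 are not independent of each other. JA differed from sham by a median of -0.34 as well, with 0 of 9 separate from sham (7.99% of all genes were lower without overlap), and JA differed from UA by a median of -0.06, with 6 of 9 negative and 0 past the threshold. Of all genes, 0% passed in JA against UA. With single libraries left out, the median of JA against sham ran from -0.68 without JA replicate 3 to -0.15 without JA replicate 1. That of JA against UA ran from -0.31 without JA replicate 3 to 0.15 without JA replicate 1, so its sign turned with 1 library.

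The JU libraries lay far apart, as the standard deviation of Tac1 was 102% of its mean in JU, against 50.6% in vehicle. Against vehicle, 4 of 9 markers had positive and 5 negative fold changes, from -0.35 ± 0.67 for Penk to 0.18 ± 0.52 for Ppp1r1b, with a median of -0.02. 0 of 9 passed (edgeR adjusted p = 1.0 for each), and 0% of all genes did. 0 of 9 had an unadjusted p under 0.05, against 1.98% of all genes. The median was 0.42 without JU replicate 1, -0.78 without JU replicate 2, and 0.72 without vehicle replicate 1. Its sign therefore depended on which library was left out.

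JU was lower than sham for all 9 markers, with a median of -0.99, and 0 of 9 passed, against 3.72% of all genes. Rgs9 had the smallest p (-0.90 ± 0.42, adjusted p = 0.155), followed by Drd1 (-1.17 ± 0.58, adjusted p = 0.178) and Pde10a (-1.18 ± 0.60, adjusted p = 0.188). Drd1, Tac1, Adora2a and Pde10a, or 4 of 9, lay below sham in every JU library, which was so for 17% of all genes. When JU replicate 2 was left out, 5 of 9 fell, namely Tac1 (-2.51 ± 0.75, adjusted p = 0.0305), Rgs9 (adjusted p = 0.0235), Pde10a (adjusted p = 0.0411), Drd1 (adjusted p = 0.0442) and Adcy5 (adjusted p = 0.0493). In that setting 28.2% of all genes passed, and 11.2% of all genes fell. When JU replicate 1 was left out, 0 of 9 passed, against 2.64% of all genes, and the median was -0.59. Against JA and UA, JU had negative fold changes for 9 of 9 markers, with medians of -0.65 and -0.77 and 0 of 9 past the threshold in either. 0% of all genes passed against JA and 1.08% against UA. Without JU replicate 1 these medians were -0.12 and -0.26.

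**Figure D2:**
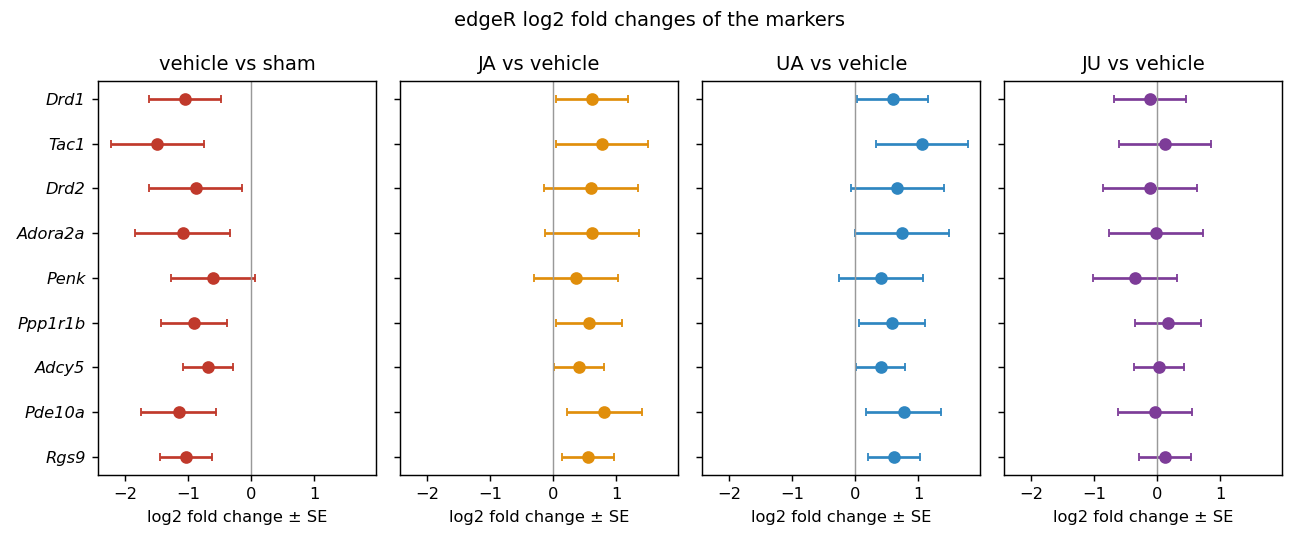
Log2 fold changes of the 9 markers with standard errors on the horizontal axis, from edgeR, for vehicle against sham and for JA, UA and JU against vehicle. All 9 points lie left of 0 for vehicle and right of 0 for JA and UA, and those for JU straddle 0; none passed an adjusted p of 0.05.

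The balance of the direct and indirect pathway transcripts was not the same in all libraries. Tac1 stood at 8.34%, 17.5% and 26.7% of the Penk level in vehicle (FPKM), 10.2%, 17.1% and 19.2% in JA, 19.8%, 19.9% and 16.9% in UA, 5.55%, 18.8% and 16.4% in JU, and 20.7%, 22.5% and 24.1% in sham. Every library of the occluded groups except vehicle replicate 3 lay below all sham libraries, and vehicle replicate 1, JA replicate 1 and JU replicate 1 lay far below the others. Drd1 relative to Drd2 did not follow in JU replicate 1, but was low in vehicle replicate 1 and JA replicate 1 too, and in UA replicate 3. That ratio was 0.699, 1.31 and 1.29 in vehicle, 0.719, 0.802 and 1.06 in JA, 0.866, 0.928 and 0.697 in UA, 1.89, 0.806 and 0.896 in JU, and 0.949, 1.06 and 0.952 in sham. JU replicate 1, lowest in Tac1 relative to Penk, was thus the highest in Drd1 relative to Drd2, where Drd2 rested on 49 counts. Summed over Drd1 and Tac1 against Drd2, Penk and Adora2a, the log2 ratio of CPM was lower than in sham by a mean of -0.21 in vehicle, -0.37 in JA, -0.24 in UA and -0.43 in JU, and in FPKM by -0.34, -0.46, -0.24 and -0.62 in the same groups. Vehicle replicate 1 alone put the vehicle mean below sham, since without it the difference in CPM was 0.19. Without JA replicate 1 the difference was -0.17 in JA, and without JU replicate 1 it was -0.22 in JU. The indirect sum was mostly Penk, at 321 of 435 CPM in sham replicate 1 and 474 of 598 in vehicle replicate 1. No test was made, since the ratio is a score over the members.

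**Figure D3:**
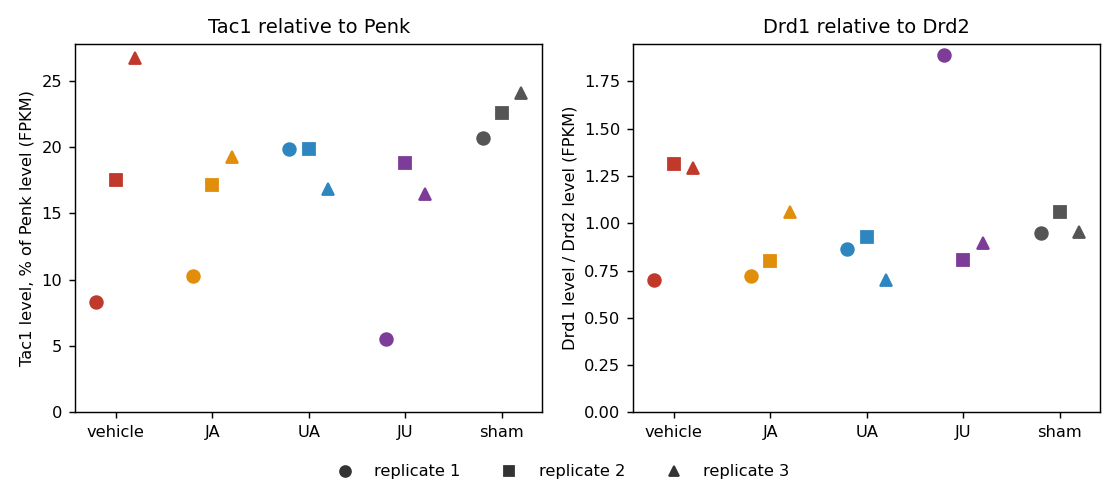
Left, Tac1 level as a percentage of the Penk level, and right, Drd1 level divided by the Drd2 level, both in FPKM, with 1 point per library. The first replicates of vehicle, JA and JU have the lowest Tac1 relative to Penk, at 8.34%, 10.2% and 5.55%, while JU replicate 1 has the highest Drd1 relative to Drd2, at 1.89.

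Over the 15 libraries the markers varied together. The Pearson correlation of log2 CPM between markers ran from 0.89 (Penk with Tac1) to 0.99 (Ppp1r1b with Adcy5) over 36 pairs, with a median of 0.96. After the group means were subtracted the median was 0.96 too, from 0.845 (Penk with Tac1) to 0.99 (Drd2 with Adora2a), and without JU replicate 1 the medians were 0.96 and 0.95. The points share libraries, so this describes the libraries and is no test. Drd2 and Adora2a, carried by the same neurons, were among the closest pairs, and the precursors of the opposing classes were the most distant pair. Not every pair sorted by class, as r over all libraries was 0.975 for Drd1 with Adora2a and 0.965 for Drd2 with Penk. On the mean of the other 8 markers, Tac1 moved by 1.39 log2 units per unit, Adora2a and Drd2 by 1.31 each, Rgs9 by 0.65 and Adcy5 by 0.58. Without JU replicate 1 these slopes were 1.13 for Tac1, 1.31 for Adora2a, 1.14 for Drd2, 0.84 for Rgs9 and 0.60 for Adcy5, so Adora2a stood highest and Adcy5 lowest.

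The genes most like the mean of the markers over 15 libraries, among 13780 ranked, were Pde1b, Serpina9, Pde7b, Syndig1l, Gpr6, Rasd2, Meis2 and Gnal, with r from 0.996 for Pde1b to 0.979 for Gnal. Pde1b and Pde7b are cyclic nucleotide phosphodiesterases, Gpr6 is an orphan receptor of indirect pathway neurons, Rasd2 a small GTPase and Gnal the stimulatory G protein subunit that couples D1 and adenosine receptors to Adcy5. Pde1b stood at 354, 162 and 184 CPM in vehicle, 242, 318 and 385 in JA, 337, 293 and 293 in UA, 107, 368 and 236 in JU, and 397.5, 392.2 and 354 in sham. It was low in the same libraries as the markers, and vehicle replicate 1 stood level with the lowest sham library. All 8 belong to the lists of striatal and signaling genes described next. Those lists were chosen with earlier results of these data known, so the overlap is no independent support. In all, 463 of the 13780 genes had an r of at least 0.9. By deviations from group means, Gprin3 (r = 0.984) and Rem2 (r = 0.983) were among the genes most like the markers, and they are in neither list.

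Other genes of projection neurons and of the same signaling pathway showed the pattern in part. Of 30 further projection neuron genes tested, 30 had negative fold changes in vehicle, with a median of -0.79, and 1 fell and 0 rose past the threshold in edgeR, where 4.24% of all genes fell. That gene was Foxp2, a transcription factor, at 16.01, 10.4 and 14.1 CPM in vehicle and 24.4, 29.2 and 24.97 in sham (log2 fold change -0.95 ± 0.22, adjusted p = 0.0328). With any single vehicle or sham library left out, 0 of the 30 passed. Rarb, a retinoic acid receptor (-1.01 ± 0.32, adjusted p = 0.0786), Strip2 (-0.82, adjusted p = 0.0850) and Gpr52, an orphan receptor (-1.08, adjusted p = 0.105), did not pass. These 4 genes, named for the smallest p of the 30, were below sham in vehicle replicate 1 also, which that choice favors. Gpr52 stood at 22.9, 10.6 and 8.84 CPM in vehicle and 27.4, 32.3 and 30.03 in sham. Not every gene of the list did so, as Gpr149 stood at 7.01 CPM in vehicle replicate 1 and at 4.69 to 6.21 in sham. Without JU replicate 1 in the fit, 18 of the 30 fell, against 16.9% of all genes. After a correction for GC content 0 of the 29 then fitted fell, as did 0% of all genes.

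Among 30 partners of dopamine and cyclic AMP signaling, 28 had negative fold changes in vehicle (median -0.41), and 1 fell past the threshold. This was Ppp1cb, a catalytic subunit of the phosphatase that DARPP-32 inhibits, at 197, 205 and 204 CPM in vehicle and 316, 318 and 333 in sham (log2 fold change -0.68 ± 0.11, adjusted p = 0.00958). Vehicle replicate 1 was here as low as the other vehicle libraries. Ppp1cb rose in UA, to 312, 308 and 295 CPM against the vehicle values above, and was the 1 of 30 that passed there (0.60 ± 0.11, adjusted p = 0.0183). That call was lost, with 0 of the 30 passing, when any UA library, vehicle replicate 1 or vehicle replicate 2 was left out, and with the GC correction. The call in vehicle against sham was lost without sham replicate 3, when 0 of the 30 passed. Ppp3r1, the regulatory subunit of calcineurin, which dephosphorylates DARPP-32, stood at 738, 592 and 739 CPM in vehicle and 1203, 1205 and 1286 in sham (-0.84, adjusted p = 0.0615). Pde4b, a cyclic AMP phosphodiesterase, had -0.39 (adjusted p = 0.0617), and Gnai2, an inhibitory G protein subunit that immune cells also express, 0.76 (adjusted p = 0.0917). Without JU replicate 1 in the fit, 15 of the 30 fell, where 16.9% of all genes did, and with the GC correction 0 fell, as did 0% of all genes.

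Transcripts of other neurons had smaller medians than the -1.03 of the markers, a difference that was not tested. The median fold change in vehicle against sham was -0.47 for 10 striatal interneuron genes, -0.23 for 14 cortical excitatory neuron genes, -0.32 for 14 pan-neuronal genes and -0.40 for 10 thalamic genes. For the 10 hippocampal genes it was 0.02. In all of these lists 0 genes passed, and an unadjusted p under 0.05 was found for 0 interneuron, 1 cortical, 0 pan-neuronal, 3 thalamic and 1 hippocampal gene. Set against the pan-neuronal genes of the same library, the mean log2 level of the 9 markers was 0.12, -1.33 and -1.36 relative to sham in vehicle, -0.74, -0.35 and 0.0046 in JA, -0.17, -0.27 and -0.47 in UA, and -1.82, -0.16 and -1.02 in JU. The sham libraries lay between -0.14 and 0.15 on this scale. The markers were thus lower than the pan-neuronal genes in vehicle replicates 2 and 3 and in JU replicates 1 and 3, by more than 1 log2 unit, and not in vehicle replicate 1.

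Reactive cells did not follow the markers in every library. The summed level of 28 reactive microglia and macrophage genes was 530% to 1233% of the sham mean in vehicle, 101% to 445% in JA, 123% to 226% in UA, 119% to 2385% in JU and 96.5% to 102% in sham, and 28 of 28 had positive fold changes in vehicle, with 0 past the threshold, where 5.02% of all genes passed. All 28 had an unadjusted p under 0.05, against 29.3% of all genes. Vehicle replicates 1 and 3 had nearly the same mean log2 score of these genes, at 3.29 and 3.36, while the 9 markers stood at -0.13 and -1.57. JU replicate 3 had a score of 1.96 with markers at -1.15, and UA replicate 2 a score of 2.08 with markers at -0.35. Reactive astrocyte genes, 19 of 19 positive in vehicle, reached 430.4% to 1087% of the sham mean in vehicle, 88.0% to 354% in JA, 161% to 358% in UA, 128% to 2167% in JU and 96.6% to 106% in sham. Of the 19, 0 passed in vehicle against sham and 8 had an unadjusted p under 0.05. Gfap alone gave 1062 of the 1516 CPM summed in vehicle replicate 1. The part of reactive microglia, macrophages and astrocytes in the level of the markers was not tested. Oligodendrocyte genes summed to 91.7% to 114% of the sham mean in vehicle. Of 8 genes of dopamine neurons, 5 passed the filter on low counts, and Aldh1a1 was the highest, at 24.1 to 49.99 CPM over all libraries. Th, the rate-limiting enzyme of dopamine synthesis, stood at 0.956 to 5.63 CPM and Slc6a3, the dopamine transporter, at 0.0514 to 0.521 CPM, while Pitx3 and En1 were at or under 3 counts in every library.

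**Figure D4:**
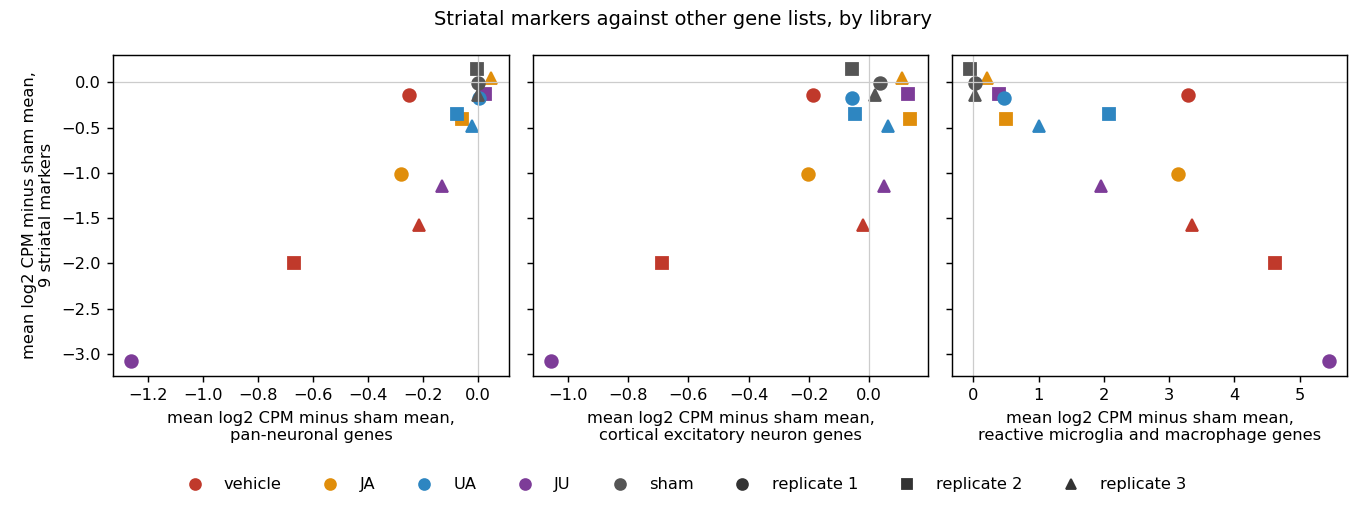
Mean log2 CPM of the 9 striatal markers minus the sham mean (vertical) against the same for pan-neuronal, cortical excitatory and reactive microglia genes (horizontal), with 1 point per library. Vehicle replicates 1 and 3 share a microglial score of 3.29 and 3.36 with markers at -0.13 and -1.57, and JU replicate 1 lies lowest in every panel.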

How the data were processed

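The 15 mRNA libraries fall into 5 groups of 3 by their sample titles. Per the labels' protocols, the mirVana kit served for RNA extraction and the TruSeq Stranded mRNA kit for the libraries. The table deposited by the authors holds a raw whole-number count per gene and library, not normalized, per the file headers. FPKM values from the authors stand beside the counts. Trimmomatic, HISAT2, Cufflinks, DESeq and GRCm38 (mm10) are named in the submitters' processing notes. The counting tool and all versions are not given there. 1 count column matched no sample label and was not used; every row named a gene.

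Genes were tested with edgeR 4.0.16 (quasi-likelihood, robust) in R 4.3.3 after filterByExpr, which left 15125. All 15 libraries entered 1 fit with TMM factors of 0.975 to 1.03. With 10 residual degrees of freedom, the common biological coefficient of variation came to 27.1%. Adjusted p-values are Benjamini-Hochberg over all genes of a contrast (threshold 0.05), and each SE was taken as |log2 fold change|/√F. Scores are the mean log2 CPM (prior count 2) of a list minus the sham mean. A floor of 3 counts equals 0.143 to 0.166 CPM across libraries and covers counting error only. Coordinates are from GENCODE M21 (GRCm38), which gave a transcript GC content for 97.8% of genes. The members and lists were chosen with earlier results of these data known. All 9 markers are named, with up to 4 genes of a reported list by smallest p in vehicle against sham, and the 8 genes most like the markers by r (mean of at least 1 CPM), apart from an item that is not reported here. No replicate pair agreed within sampling noise (lowest chi-square over its degrees of freedom, 5.02). The procedure was tested on simulated data with the same spread in every library and no outlying library, unlike the data here. Alternatives were DESeq2 1.42.0, limma 3.58.1 (voom, and log2(FPKM + 1)), other scaling, no filter, fewer libraries, a replicate block and a GC correction.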

Additional observations from a re-analysis of the deposited data

How the results depend on the processing

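0 of 9 markers passed in every contrast under size-factor scaling, DESeq2, voom, limma on FPKM, no filter, the GC correction and the replicate block. In vehicle against sham, the share of all genes passing in these settings ran from 0% with the GC correction to 16.6% with DESeq2. It was 2.53% with the replicate block. The exceptions among all settings run were vehicle against sham with only those groups fitted (1 of 9) and with single libraries left out (0 to 1), and JU against sham with single libraries left out (0 to 5). With single libraries left out, the median fold change of the markers ran from -1.91 to -0.71 for vehicle against sham and from 0.31 to 1.499 for UA against vehicle. For JU against vehicle it ran from -0.78 to 0.72, for JA against UA from -0.31 to 0.15, and the cause was not tested. The ratio of direct to indirect pathway transcripts in vehicle minus sham ran from -0.50 to 0.19, by leaving out libraries, an alternative chosen after seeing the data. In the 3 contrasts examined gene by gene (vehicle and JU against sham, UA against vehicle), 0 fold changes of single markers changed sign in any setting. The GC correction left the median in vehicle against sham at -1.01, while over all genes 0 passed with it (2946 with an unadjusted p under 0.05), against 760 without it, 2507 with DESeq2, 5172 without JU replicate 1 and 0 without sham replicate 3. Of the 30 further projection neuron genes, 1 fell in vehicle, 5 with DESeq2, and 9 of 29 fitted with only the groups compared. With the GC correction 0 fell, whether or not the block was added, and with single libraries left out 0 to 18 fell. Of the 30 signaling partners, 1 fell, 6 with DESeq2, 10 with only the groups compared and 1 with the replicate block. With the GC correction 0 fell, whether or not the block was added, and with single libraries left out 0 to 15 fell. Same-numbered replicates of JA and JU deviated together at all 3 numbers (r = 0.701, 0.387 and 0.422), which is seen in the data only. The submitters' own names for these libraries carry different numbers in JA and JU, so the labels give no pairing. The cause was not tested. Between the other groups no set of 3 pairs did (over all groups r ran from -0.726 to 0.701, over 0.1 in 7 of 30 pairs). The replicate block, fitted over all groups, gave a median of -0.72 for JU against JA, with 0 of 9 past the threshold as without it. With the replicate block the median of the markers was -0.99 in vehicle against sham and 0 of 9 passed; with the block alone 0 of the projection neuron genes and 1 of the partners fell. The lowest count of any marker was 44, in JU replicate 1, so depth limits the lowest levels of Tac1 and Drd2 only there.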
